A study of Bos taurus with 20 samples.

Results

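Angiopoietins and angiopoietin-like proteins are secreted proteins, most of which share a coiled-coil stretch and a fibrinogen-like domain. They were followed here as 7 genes, ANGPT1, ANGPT2, ANGPTL1, ANGPTL2, ANGPTL4, ANGPTL5 and ANGPTL7, chosen by symbol from the 33063 named genes of a raw count table. The table came from RNA sequencing of 20 mesenchymal stem cell (MSC) clones of cattle. Each clone was grown from 1 cell sorted from passaged MSC cultures, which were derived from visceral fat of Holstein Friesian x Aberdeen Angus calves. Growth was in serum-containing medium with bFGF, with conditioned medium from MSC cultures of the same animal added after sorting. The clones were sequenced undifferentiated. The 10 adipogenic (A) clones had formed lipid-laden adipocytes when differentiated in a separate test and the 10 non-adipogenic (N) clones had not, and the comparison asks what differed between them beforehand. Animals 17 and 20 gave 1 A and 1 N clone each, and animals 22 and 23 gave 4 of each. The labels name no drug treatment or engineered allele. Clones are named by animal and clone number, so that 22-11 is clone 11 of animal 22.

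The angiopoietins ANGPT1, ANGPT2 and ANGPT4 bind the receptor tyrosine kinase TEK (Tie2), which is best known from endothelial cells. ANGPT1 activates the receptor and stabilises vessels, whereas ANGPT2 is mostly known as its context-dependent antagonist. The angiopoietin-like proteins do not bind TEK. ANGPTL4 inhibits lipoprotein lipase, the enzyme that releases fatty acids from circulating triglycerides, and its gene is a known target of PPAR receptors, hypoxia and glucocorticoids in fat tissue. ANGPTL2 is secreted by adipose tissue and signals through integrins, including the integrin of ITGA5 and ITGB1.

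Of the 7 genes, 6 had at least 1 count in at least 1 clone, and ANGPTL7 had 0 counts in all 20. ANGPTL1, ANGPTL2 and ANGPTL4 passed the filter on low counts and were tested among 12900 genes. Libraries held 14615493 to 43111345 counts, with medians of 16112862 in A and 16316703.5 in N clones (exact permutation test within animals, two-sided, p = 0.884). A count of 0 allowed a level of up to 0.0764 to 0.216 counts per 1000000 counts of the library (CPM, on TMM-scaled totals), depending on the clone, and such limits cover counting error only. The 100 most abundant genes took 29.5% ± 1.64 of the counts of A clones against 26.1% ± 2.14 for N (SD, n = 10 each), with an exact permutation p of 0.0048. Mesenchymal stromal markers summed to 3808 to 6290 CPM in A and 2788 to 5583 CPM in N clones. Of the 3 members tested, 0 passed the edgeR test at an adjusted p of 0.05, against 20.6% of all genes tested. Macrophage markers summed to 0.732 to 6.43 CPM in A (median 2.69) and 0.146 to 7.61 CPM in N clones (median 0.246). None passed the filter on low counts, and C1QA and C1QB were at 0 in all clones. In the edgeR fit without the filter, CSF1R and CD14 rose in A clones by 3.13 and 2.75 on the log2 scale (adjusted p = 0.00268 and 0.0417). In that fit 2755 of 23383 genes passed an adjusted p of 0.05, and AIF1 did not (adjusted p = 0.208). CD14 was higher in A clones in 2 animals and lower in 2, and its highest level was 6.57 CPM in N clone 20-15. PTPRC had 0 counts in 18 of the 20 clones. Mesothelial markers ranged from 7.73 to 1095 CPM in A (median 58.8) and from 8.82 to 9198 CPM in N clones (median 157). The highest sums were 9198 and 6512 CPM in N clones 22-5 and 22-9. A clones 22-11, 22-16 and 23-62 followed at 1095, 939 and 385 CPM. In that order these clones held 156, 127, 238, 178 and 284 CPM of ANGPTL2. A clone 22-121 and N clone 20-15, with mesothelial sums of 30.5 and 17.9 CPM, held 269 and 225 CPM of ANGPTL2. Of the 6 mesothelial markers tested 1, MSLN, fell in A clones (log2 fold change -1.97, edgeR adjusted p = 0.0393), a call lost in 12 of 20 fits without 1 clone. The part of such cells in the members' levels was not tested. Clones are the replicates, so p-values measure the spread between clones. In bulk RNA, fewer cells of a type and less RNA per cell cannot be told apart.

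No tested member passed an adjusted p of 0.05 between A and N clones in the edgeR quasi-likelihood test with animal as a block, against 20.6% of all genes tested. Adding a change of at least 2-fold left 5.76% of all genes and 0 of the 3 members. ANGPTL2 and ANGPTL4 were under an unadjusted p of 0.05, as were 36.1% of all genes. No tested member had A and N clones that did not overlap, a pattern found in 0.318% of genes. The DESeq2 Wald test with the same block gave adjusted p-values for 5 members and placed 3 of them, ANGPT2, ANGPTL2 and ANGPTL4, past both thresholds, against 9.85% of all genes. ANGPT2 was not tested in the filtered edgeR fit, and without the filter its edgeR adjusted p was 0.0919. With no replicate block DESeq2 called ANGPTL4 (adjusted p = 0.0267) but not ANGPT2 (0.225) or ANGPTL2 (0.0791). In edgeR, ANGPTL4 passed without animal 17 (adjusted p = 0.0262) and ANGPTL2 without animal 20 (0.0243). The calls therefore depended on the tool, on the block for ANGPT2 and ANGPTL2, and on single animals for ANGPTL2 and ANGPTL4.

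**Figure D1:**
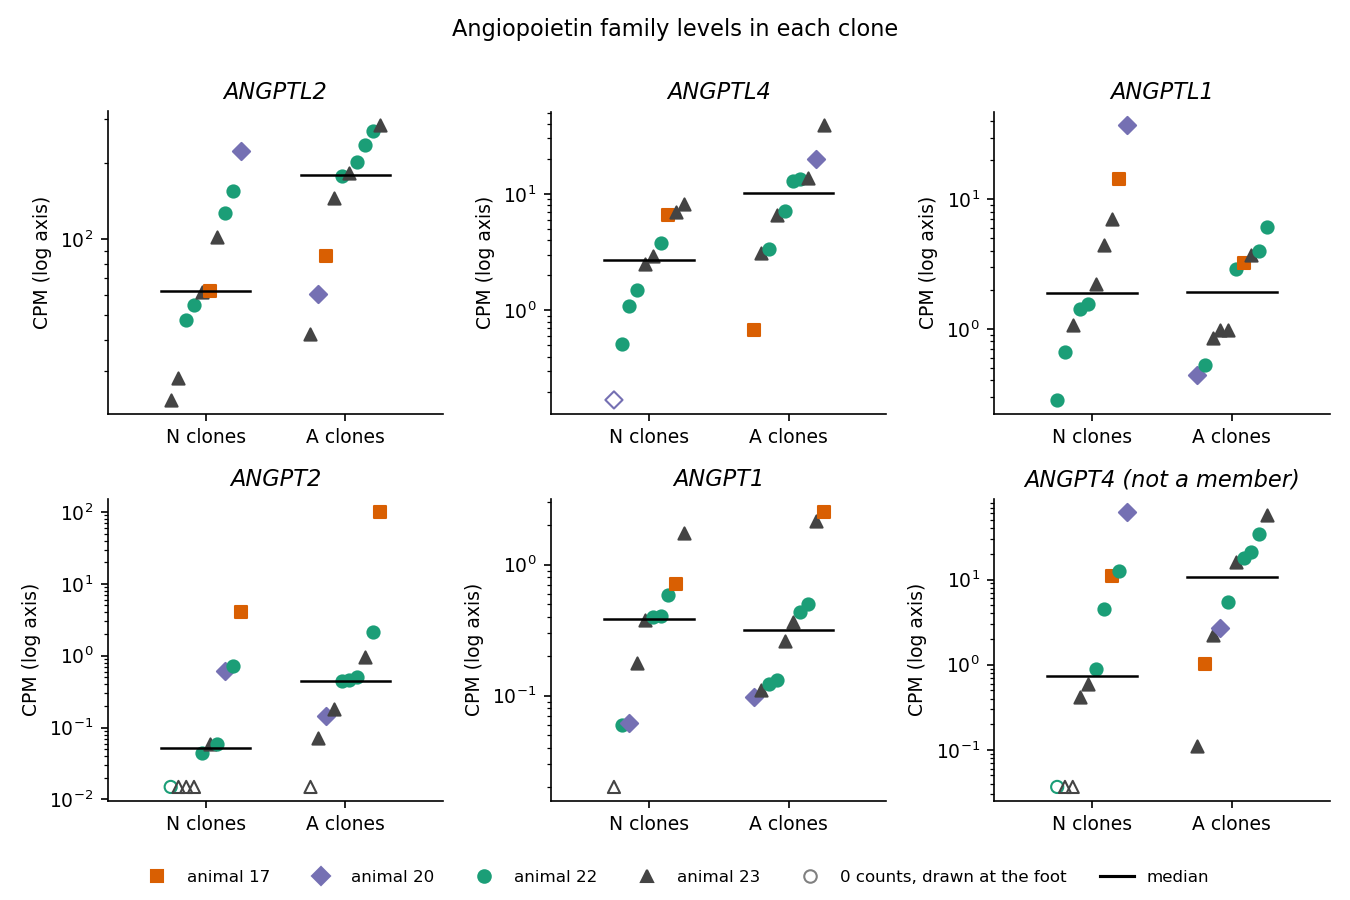
Level of each gene in each clone, in CPM on logarithmic axes, with N clones on the left and A clones on the right of each panel. Symbols mark the animal, open symbols at the foot are clones with 0 counts, and bars are medians. The median of ANGPTL2 was 62.3 CPM in N and 180 CPM in A clones, while the ANGPTL1 medians were 1.88 and 1.94 CPM.

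ANGPTL4 was higher on average in A clones, with a mean of 12.0 ± 11.2 CPM against 3.40 ± 2.89 CPM in N clones (SD, n = 10 each). The A clones ran from 0.681 to 39.0 CPM with a median of 10.1 CPM. The N clones ran from 0 to 8.16 CPM with a median of 2.71 CPM. The 5 A clones 20-106, 22-11, 22-16, 23-14 and 23-108 stood above every N clone, and the other 5 lay within the N range. The log2 fold change was 2.00 (SE 0.757, 95% interval 0.40 to 3.59, edgeR adjusted p = 0.0691), and DESeq2 gave 2.03 (adjusted p = 0.0101). The exact permutation test of mean log2 CPM within animals, two-sided and unadjusted, gave p = 0.0415.

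Animal 17 ran against the other 3 animals for ANGPTL4. Its A clone had 0.681 CPM and its N clone 6.53 CPM. In animal 20 the A clone had 20.1 CPM and the N clone had 0 counts, so that A was at least 109-fold higher when N was set to the limit of 3 counts. Animal 22 averaged 9.24 ± 4.86 CPM in A and 1.73 ± 1.45 CPM in N clones. Animal 23 averaged 15.6 ± 16.2 CPM in A and 5.13 ± 2.85 CPM in N clones (SD, n = 4 each in both animals). Leaving out either clone of animal 17 brought the edgeR adjusted p to 0.0263 without 17-23 and 0.0261 without 17-57, with log2 fold changes of 2.35 in both fits. Both fits amount to leaving out animal 17, since with animal as a block its remaining clone cannot inform the A against N difference.

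ANGPTL2 was likewise higher on average in A clones, at 169 ± 84.7 CPM against 88.8 ± 63.9 CPM (SD, n = 10 each). The A clones ran from 42.0 to 284 CPM with a median of 180 CPM. The N clones ran from 23.1 to 225 CPM with a median of 62.3 CPM. The groups overlapped, and the 3 A clones 22-11, 22-121 and 23-62 stood above every N clone. The log2 fold change was 1.05 (SE 0.418, 95% interval 0.17 to 1.93, edgeR adjusted p = 0.0819). DESeq2 gave 1.06 (adjusted p = 0.0299), and the unadjusted exact permutation p was 0.0361.

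The exception for ANGPTL2 was animal 20. Its N clone 20-15 had 225 CPM, the highest value of any N clone, and its A clone 20-106 had 60.6 CPM. In animal 17 the A clone had 85.6 CPM and the N clone 62.5 CPM. Animal 22 averaged 222 ± 39.9 CPM in A and 96.5 ± 53.4 CPM in N clones, and animal 23 averaged 164 ± 99.8 CPM against 53.8 ± 36.5 CPM (SD, n = 4 each). Every A clone of animal 22 was above every N clone of that animal, whereas in animal 23 the A clone 23-108, at 42.0 CPM, lay below 2 of the N clones. Without 20-15 the log2 fold change was 1.30 (edgeR adjusted p = 0.0241), and without 20-106 it was also 1.30 (adjusted p = 0.0242). Both fits amount to leaving out animal 20, since its remaining clone is taken up by the animal block.

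ANGPTL1, a relative of ANGPTL2 described as an inhibitor of vessel growth, did not pass the test. Its median was 1.94 CPM in A and 1.88 CPM in N clones. The means were 2.37 ± 1.90 CPM and 7.04 ± 11.5 CPM (SD, n = 10 each), since N clones 20-15 and 17-23 reached 37.3 and 14.4 CPM. The other N clones lay between 0.282 and 7.02 CPM, and the A clones between 0.441 and 6.11 CPM. The log2 fold change was -0.42 (SE 0.798, 95% interval -2.11 to 1.26, edgeR adjusted p = 0.731), an interval that leaves room for a more than 2-fold difference in either direction. The order of the groups differed between animals. Animal 22 averaged 3.37 ± 2.32 CPM in A and 0.982 ± 0.612 CPM in N clones, whereas animal 23 averaged 1.64 ± 1.41 CPM in A and 3.68 ± 2.63 CPM in N clones (SD, n = 4 each). In animals 17 and 20 the A clones, at 3.20 and 0.441 CPM, were below the N clones.

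ANGPT2 was led by 1 clone. A clone 17-57 held 1455 counts (99.1 CPM), and the next highest clones were N clone 17-23 of the same animal with 74 counts (4.03 CPM) and A clone 22-121 with 35 counts (2.13 CPM). The other A clones held 0 to 26 counts, and the other N clones 0 to 28 counts. The median was 0.450 CPM in A and 0.0524 CPM in N clones, and 4 N clones and 1 A clone had 0 counts. ANGPT2 did not pass the filter on low counts. Fitted without it, the log2 fold change was 2.30 (SE 0.861, edgeR adjusted p = 0.0919), and DESeq2 with the animal block gave 2.67 (adjusted p = 0.0113). DESeq2 with no replicate block gave 1.53 (adjusted p = 0.225). The unadjusted exact permutation p was 0.0214. Without the filter and without 17-57 the edgeR value was 2.02 (SE 0.895, adjusted p = 0.156), a fit that in effect leaves out animal 17.

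Clone 17-57 was also the highest of the 20 clones for some vessel-related markers, but not for others. It held 80.4 CPM of MCAM, 115 CPM of the smooth muscle myosin gene MYH11 and 56.1 CPM of the endothelial marker EMCN, against A medians of 1.02, 3.64 and 1.15 CPM. EMCN was next highest in N clone 17-23, at 10.7 CPM, as was ANGPT2. Other endothelial markers did not share this pattern in 17-57. PECAM1, at 0.136 CPM, was the lowest of the A clones, and CDH5, KDR, TIE1 and CLDN5 had 0 counts. TEK and ESAM were the highest of the A clones, but at 2.32 and 0.204 CPM. The endothelial markers summed to 87.2 CPM in 17-57, within the A range of 14.0 to 108 CPM. ACTA2 and DES, at 4846 and 158 CPM in 17-57, lay within the range of the other A clones, and CSPG4, at 129 CPM, was the lowest of the A clones. The 9 pericyte and smooth muscle markers summed to 5393 CPM in 17-57, within the range of 862 to 8440 CPM of the A clones (median 3267), and the N clones ranged from 111 to 5791 CPM (median 1592). RGS5, a defining pericyte marker, was at 0.272 CPM in 17-57. Of the list, 7 genes were tested and 3 rose in A clones, namely NOTCH3, CSPG4 and MYH11 (20.6% of all genes passed in either direction). MYH11 was lost in 15 of 20 fits without 1 clone, and NOTCH3 with no replicate block (adjusted p = 0.0794). The part of mural or endothelial cells in the ANGPT2 level was not tested.

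ANGPT1 was low in both groups. A clones held 2 to 37 counts with a median of 0.315 CPM, and N clones held 0 to 29 counts with a median of 0.387 CPM. The highest levels were in A clones 17-57 and 23-68, at 2.52 and 2.16 CPM, followed by N clone 23-23 at 1.74 CPM. Without the filter the log2 fold change was 0.24 (SE 0.661, edgeR adjusted p = 0.840), and the unadjusted exact permutation p was 0.572.

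ANGPTL5 and ANGPTL7 were at or near 0. ANGPTL5 had 1 count in each of N clones 17-23, 22-9 and 23-10, 1 count in A clone 22-16 and 2 counts in A clone 23-14, and 0 in the other 15. ANGPTL7 had 0 counts in every clone. No fold change is given for either gene.

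A further 3 genes of the family were read beside the members. ANGPT4, the third ligand of TEK, passed the filter and ran from 0.11 to 56.9 CPM in A and from 0 to 61.9 CPM in N clones, with medians of 10.8 and 0.740 CPM. Its log2 fold change was 2.77 (SE 1.47, edgeR adjusted p = 0.181; DESeq2 3.03, adjusted p = 0.0390), and A was higher in animals 22 and 23 and lower in animals 17 and 20. The value was 0.78 with no replicate block (DESeq2 0.81, adjusted p = 0.680), 0.68 without animal 23 and -0.15 with counts summed per animal, so that its direction was not stable. ANGPTL6 held 0 to 16 counts, and ANGPTL8 had 0 counts throughout.

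**Figure D2:**
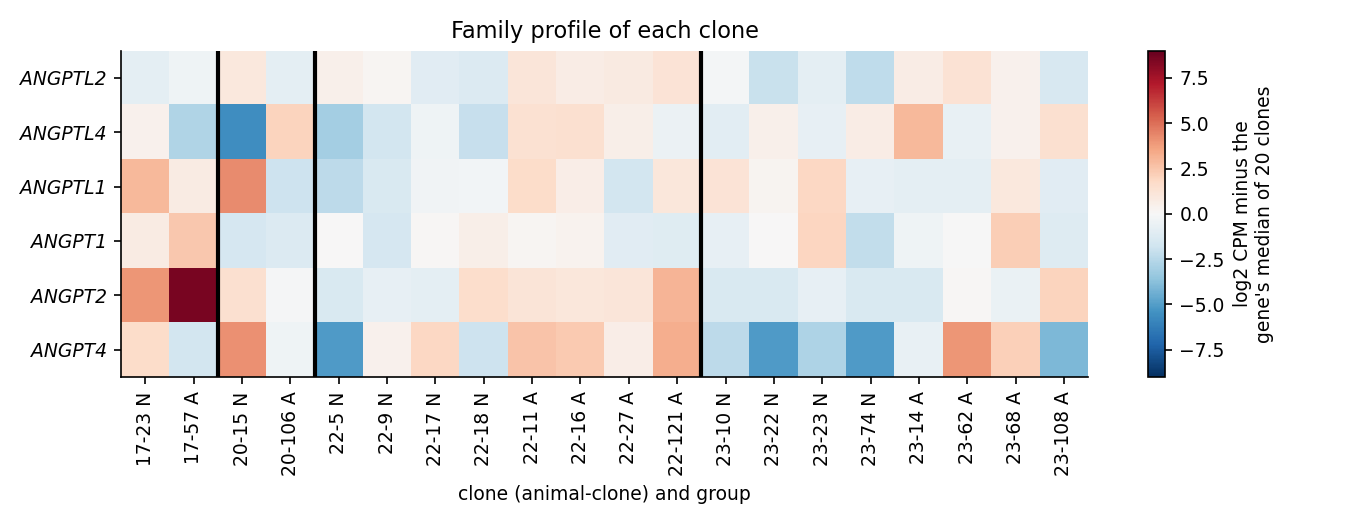
Log2 CPM of each gene in each clone minus the median of that gene over the 20 clones, with clones in columns ordered by animal, then N before A, and vertical lines between animals. ANGPT2 in A clone 17-57 and ANGPTL4 in N clone 20-15 lie farthest above and below their medians.

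The members did not follow one common profile across clones. N clone 20-15 held the highest N level of ANGPTL1, ANGPTL2 and ANGPT4 and had 0 counts of ANGPTL4. It also held 90.6 CPM of LPL, the highest level of any clone. LPL is 1 of the 8 mature adipocyte markers, which summed to 149 CPM in 20-15, to 34.5 to 51.5 CPM in the other N clones and to 32.4 to 145 CPM in the A clones. Of these markers 6 were tested and 1, PLIN1, rose in A clones, against 20.6% of all genes past the same threshold. The PLIN1 call was lost in 14 of 20 fits without 1 clone. A clone 20-106, with a sum of 145 CPM, had 20.1 CPM of ANGPTL4. The adipocyte hormone genes ADIPOQ and LEP reached at most 42 and 4 counts in A and 3 and 1 counts in N clones, and neither passed the filter. In the edgeR fit without the filter ADIPOQ rose in A clones by 2.75 on the log2 scale (adjusted p = 0.0175). In that fit 1 of the 8 adipocyte markers and 2755 of 23383 genes passed an adjusted p of 0.05. LEP and PLIN1 did not (adjusted p = 0.0734 and 0.0756). With the mean of each animal taken off, log2 CPM of ANGPTL2 and ANGPT4 correlated at r = 0.69 over the 20 clones, and at 0.45 with the condition mean also taken off. For ANGPTL2 and ANGPTL4 the same values were -0.11 and -0.53. These correlations are descriptions over clones that share animals and library totals.

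The animal term, tested in the same edgeR model, was past an adjusted p of 0.05 for 4.6% of genes and for 0 of the 3 tested members, whose adjusted p-values were 0.304 (ANGPTL1), 0.552 (ANGPTL2) and 0.718 (ANGPTL4). Without the filter it was called for 659 of 23383 genes, among them ANGPT2 (adjusted p = 0.0021), which was highest in both clones of animal 17. Whether the A against N difference itself differed between animals could be tested in animals 22 and 23, where 0.031% of genes were called and 0 of the 3 members. For ANGPTL1 the log2 difference of animal 23 minus that of animal 22 was -2.93 (SE 1.08, edgeR unadjusted p = 0.0164, adjusted p = 0.457). For ANGPTL2 it was 0.40 (SE 0.788, adjusted p = 0.910), and for ANGPTL4 it was -0.81 (SE 1.06, adjusted p = 0.861).

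**Figure D3:**
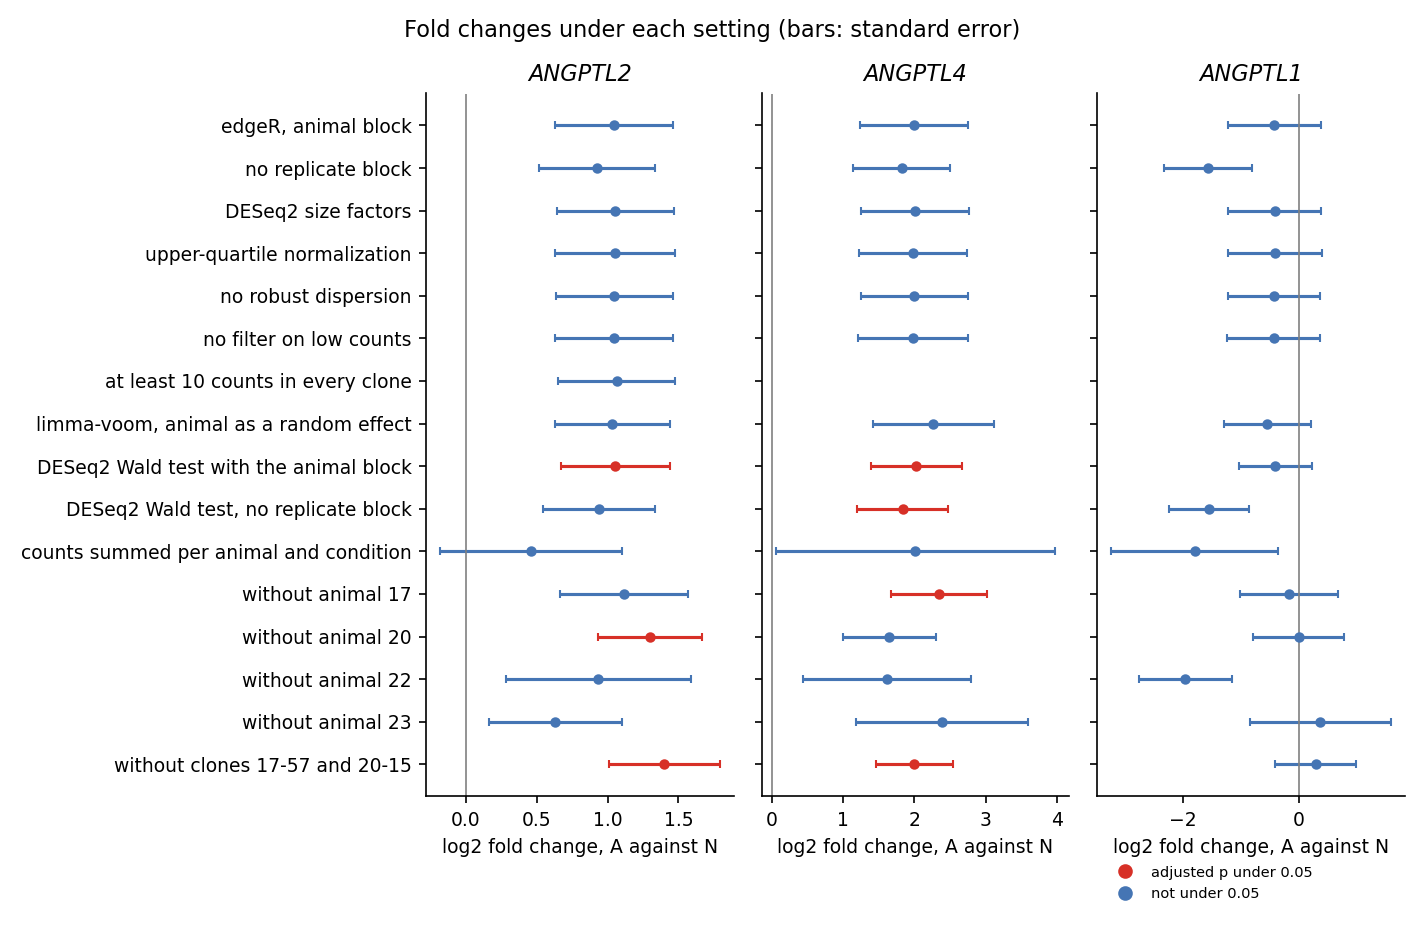
Log2 fold change of A against N clones for the 3 tested members under each way of fitting the counts, with bars of 1 standard error. Red marks an adjusted p under 0.05. ANGPTL2 and ANGPTL4 had estimates above 0 in every fit shown, and ANGPTL1 changed sign without animal 23 and without clones 17-57 and 20-15. The filter of at least 10 counts in every clone removed ANGPTL4 and ANGPTL1.

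Among the receptors and regulators of the angiopoietins, TEK itself was low, with 8 to 43 counts in A and 2 to 60 counts in N clones. Its means were 1.19 ± 0.604 CPM and 1.34 ± 1.04 CPM (SD, n = 10 each), with a log2 fold change of -0.03 and a 95% interval of -0.67 to 0.60 (edgeR adjusted p = 0.947). The related receptor TIE1 held 0 to 7 counts and was not tested. Of the 7 genes of this list, 4 were tested, 0 rose and 1 fell, with a median log2 fold change of -0.06 against -0.01 over all genes. This and the later lists were counted at an adjusted p under 0.05 alone, which 20.6% of all genes passed. The gene that fell was PTPRB, the phosphatase that removes phosphates from TEK, with 1.74 ± 3.97 CPM in A and 17.7 ± 14.0 CPM in N clones (log2 fold change -3.87, SE 0.908, adjusted p = 0.00878). Endothelial markers summed to 14.0 to 108 CPM in A and 1.58 to 56.0 CPM in N clones. Of these, 2 of the 6 tested rose in A clones, ERG and EGFL7, while the defining marker CLDN5 was at 0 in all clones, and CDH5 and KDR held at most 5 and 8 counts. ERG was lost in 4 of 20 fits without 1 clone, those without 22-9, 22-17, 23-10 or 23-14.

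All 5 integrin genes of the receptor list were tested, and 2 rose in A clones, against 20.6% of all genes past the same threshold. ITGA5, which pairs with ITGB1 to form the fibronectin receptor bound by ANGPTL2, rose from 1286 ± 851 CPM in N to 3913 ± 1476 CPM in A clones (log2 fold change 1.65, SE 0.295, edgeR adjusted p = 0.0020). Its level was above every N clone in 7 of the 10 A clones. ITGAV rose by less than 2-fold (log2 fold change 0.86, SE 0.240, adjusted p = 0.0202). The median of the list was 0.75, against -0.01 over all genes.

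The lipoprotein lipase list, which holds the enzyme, its handling proteins and the proteases that cleave ANGPTL4, had 11 of 16 genes tested. Of the 11, 2 rose and 0 fell, against 20.6% of all genes past the same threshold. LPL averaged 28.5 ± 27.4 CPM in A and 13.7 ± 27.6 CPM in N clones (log2 fold change 1.93, SE 0.858, edgeR adjusted p = 0.115). SDC1, a heparan sulphate proteoglycan that binds lipoproteins, had 280 ± 76.8 CPM in A and 75.4 ± 36.8 CPM in N clones, and all 10 A clones were above every N clone (log2 fold change 1.89, SE 0.275, adjusted p = 0.000717). The other gene that rose was FURIN, a protease that cleaves ANGPTL4, by 0.69 (SE 0.235, adjusted p = 0.0467), a call lost in 13 of 20 fits without 1 clone. The median of the list was 0.41, against -0.01 over all genes.

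Of 15 PPAR receptors and target genes, 13 were tested, 3 rose and 1 fell, with a median of 0.20. Over all genes tested, 20.6% passed the same threshold and the median was -0.01. PPARG, the master regulator of fat cell formation, had 10.3 ± 5.66 CPM in A and 0.934 ± 1.91 CPM in N clones (log2 fold change 3.77, SE 0.785, edgeR adjusted p = 0.00486). HILPDA, an inhibitor of the intracellular triglyceride lipase, rose by 1.82 (SE 0.431, adjusted p = 0.00897), and the lipid droplet gene PLIN2 rose by 0.73 (adjusted p = 0.0413). PPARA fell by 0.55 (adjusted p = 0.0301). The PLIN2 and PPARA calls were lost in 12 and 5 of 20 fits without 1 clone.

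Of 12 hypoxia factors and target genes, 9 were tested, 3 rose and 0 fell, with a median of 0.45. Over all genes tested, 20.6% passed the same threshold and the median was -0.01. HIF1A, the oxygen-regulated transcription factor, had 231 ± 69.2 CPM in A and 114 ± 29.3 CPM in N clones (log2 fold change 1.01, SE 0.184, edgeR adjusted p = 0.00221). The glucose transporter gene SLC2A1 rose by 1.88 (SE 0.481, adjusted p = 0.0133). The third, VEGFA, rose by 0.71 (SE 0.198, adjusted p = 0.0202). Of 6 glucocorticoid genes 5 were tested and 0 passed, with a median of 0.16.

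The vascular endothelial growth factor list, the other main family of vessel growth signals, had 6 of 10 genes tested. Against 20.6% of all genes past the same threshold, 3 of the 6 rose and 0 fell. Besides VEGFA these were VEGFC, a lymphatic growth factor, and FLT1, a receptor for VEGFA. VEGFC had 159 ± 45.5 CPM in A and 59.0 ± 42.7 CPM in N clones (log2 fold change 1.59, SE 0.310, edgeR adjusted p = 0.00327). FLT1 had 96.0 ± 35.3 CPM in A and 40.8 ± 38.7 CPM in N clones (log2 fold change 1.60, SE 0.502, adjusted p = 0.0331), a call lost in 6 of 20 fits without 1 clone, those without 22-9, 23-10, 23-23, 23-74, 22-11 or 23-14. The median of the list was 0.67, against -0.01 over all genes.

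**Figure D4:**
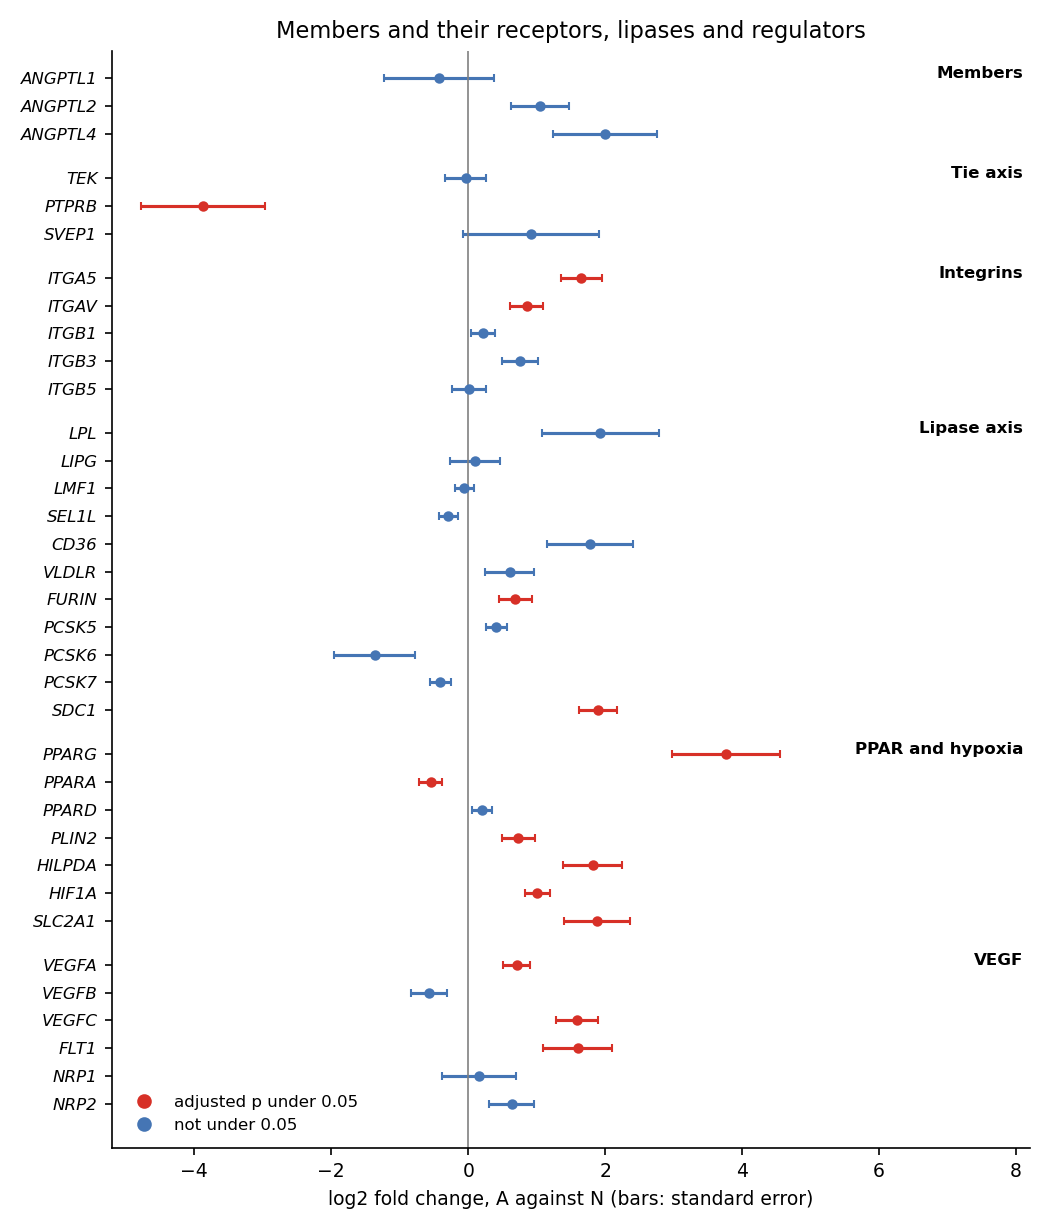
Log2 fold change of A against N clones for the tested members and for receptors, lipases and regulators tested in the same edgeR model, with bars of 1 standard error. Red marks an adjusted p under 0.05. ITGA5, SDC1, PPARG and VEGFC lie to the right of 0 and PTPRB to the left, while the 3 members are not past the threshold.

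The genes whose profiles were most like each tested member were found by Pearson correlation of log2 CPM over the 20 clones, with animal means taken off. ANGPTL4 was most like OLR1, a scavenger receptor for oxidised lipoprotein (r = 0.914), which averaged 130 CPM in A and 35.9 CPM in N clones. MCUR1, LOC104973054, FAM19A3 and SPECC1 followed at 0.851 to 0.829. ANGPTL2 was most like GAS1, a growth arrest gene (r = 0.870), followed by SLC4A4, ARHGAP26, SESN3 and TSPYL2 at 0.864 to 0.849. ANGPTL1 was most like CNTNAP1 (r = 0.911) and the complement gene C4A (r = 0.898), followed by LOC107131209, ANKRD28 and COX7A1 at 0.895 to 0.882. These genes were the highest of 12900, and no p is given. With the condition mean also taken off, r ran from 0.546 (FAM19A3) to 0.860 (OLR1) for the genes of ANGPTL4. It ran from 0.774 to 0.909 for those of ANGPTL2 and from 0.701 to 0.797 for those of ANGPTL1.

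In the RefSeq annotation, ANGPT2 lies within MCPH1, ANGPTL1 within RALGPS2 and ANGPTL2 within RALGPS1. These host genes had log2 fold changes of -0.03, 1.09 and 0.30 (edgeR adjusted p = 0.844, 0.0141 and 0.545). ANGPTL7 lies within MTOR, which averaged 84.9 CPM in A and 111 CPM in N clones. The further family gene ANGPTL8 lies within DOCK6, at 49.4 and 48.9 CPM. Both ANGPTL7 and ANGPTL8 had 0 counts in every clone. The strand setting of the counting is not given in the sources used here, so reads from overlapping exons, if any, could not be assigned with certainty.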

How the data were processed

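Libraries were made by the authors with a directional kit, and the deposited values are raw counts per gene. According to the submitters' processing notes the tools were bcl2fastq 2.20, Trimmomatic 0.36, STAR 2.5.2b and Subread 1.5.2 (featureCounts), with the genome build ARS-UCD1.2. The authors counted uniquely mapped reads in exons. The table had 33064 rows, and 1 row without a name (0.113% to 0.333% of the counts of a clone) was left out. RefSeq names came from another build, so no coordinates are given.

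Counts were tested with edgeR 4.0.16 in R 4.3.3 (TMM, default filter on the condition, robust quasi-likelihood F test, animal as a block, Benjamini-Hochberg over 12900 genes). Calls needed an adjusted p under 0.05, with and without a 2-fold change. Clones of 1 animal and opposite condition deviated together, with correlations of 0.253, 0.193, 0.241 and 0.440 for animals 17, 20, 22 and 23, and the pairing comes from the animal in the labels. CPM used TMM library sizes, and log2 CPM a prior count of 2. Alternatives were DESeq2 1.42.0, limma 3.58.1 (voom), other scalings and filters, no block, counts summed per animal, and each animal or clone left out. Permutations within animals gave 19600 arrangements, with a smallest p of 0.000102. Scripts were tested on simulated data.

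The members and gene lists were chosen with earlier results of these data known. Named genes were all members, list genes past both thresholds, TEK, TIE1, LPL, PPARG, VEGFA, the other family genes, and the 5 genes most like each tested member. Other list and marker genes that passed an adjusted p alone, the markers given for single clones, and the host genes lie outside that rule and were picked with their values in view. From the lists, 1 gene is not reported here.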

Additional observations from a re-analysis of the deposited data

Results flagged for a closer look

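On log2 CPM in each group of 10 clones, the gap between the most extreme clone and its nearest neighbour was divided by the range of the group and set against Dixon's 95% critical value. The members and the 3 further family genes gave 16 groups with any counts, and 1 passed, where chance flags about 0.8.

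ANGPT2 in the A clones gave a ratio of 0.553 on the log2 scale, from 99.1 CPM (1455 counts) in 17-57 while the remaining A clones held 0 to 2.13 CPM. Clone 17-57 was also highest for MCAM, at 80.4 CPM, and N clone 17-23 of the same calf was highest among N clones for ANGPT2, at 4.03 CPM. The cause was not tested.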

How the results depend on the processing

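The number of members past the thresholds was 0 of 3 tested, and the same counts held with and without the 2-fold requirement. It was 3 in the DESeq2 Wald test with the animal block and 1 in that test with no replicate block, where the ANGPT2 count of 17-57 was replaced as an outlier and ANGPTL4 was called. It was 1 without animal 17 (ANGPTL4) and 1 without animal 20 (ANGPTL2), with 742 of 12904 and 738 of 12909 genes called. It was 0 to 1 when each clone was left out in turn. The fits with 1 call were those without a clone of animal 17 or 20, which in effect leave that animal out. The number of members was 2 without clones 17-57 and 20-15, where 802 of 12933 genes were called. It was 1 without both the filter and 17-57 (ANGPTL4, edgeR adjusted p = 0.0400), where 1272 of 23327 genes were called. These 2 alternatives were chosen after seeing the data. With no replicate block the edgeR count stayed at 0 members, while the genes called moved from 743 to 602, and the lipase list had 2 genes past both thresholds in place of 1. The vascular endothelial growth factor list had 1 in place of 2, both with no replicate block and without the filter. The animal term was called for 1 member without the filter, ANGPT2, and for 659 of all 23383 genes in that fit.

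ANGPTL1 reversed to 0.37 without animal 23 (adjusted p = 0.884) and to 0.29 without clones 17-57 and 20-15 (adjusted p = 0.794), and was -1.56 with no replicate block, -1.79 with counts summed per animal and -1.95 without animal 22. Over all alternatives ANGPTL2 ranged from 0.46 to 1.40 (adjusted p 0.0241 to 0.748) and ANGPTL4 from 1.61 to 2.39 (adjusted p 0.0101 to 0.637). Each was past an adjusted p of 0.05 in 2 of 20 fits without 1 clone. For ANGPTL2 these were the 2 fits without a clone of animal 20, and for ANGPTL4 the 2 without a clone of animal 17. Each such pair in effect leaves out that animal once. Called genes numbered 1276 of 23383 tested without the filter, 365 of 10879 with at least 10 counts in every clone and 22 of 13071 without animal 23. DESeq2 called 1714 of 17398 genes with the block and 1425 of 17938 without it. With counts summed per animal, edgeR called 0 of 14669 genes, and 2243 were under an unadjusted p of 0.05. Causes were not tested. Most clones held few or 0 counts of ANGPT1, ANGPT2, ANGPTL5 and ANGPTL7, which limits any comparison of these genes between the groups.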
